A study of Homo sapiens with 4 samples.

Results

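The genes described here belong to the solute carrier families SLC1, SLC3, SLC7, SLC36, SLC38 and SLC43, which move amino acids across the membranes of human cells. Members were chosen by symbol alone, as every gene of these families that the RefSeq names of the array's targets gave. The gene table holds 41 such symbols, and 39 of them, with 40 targets and 120 probes, were matched among the 17217 named genes on the arrays. SLC3A2 and SLC38A8 were not matched and were not analysed here. RNA came from HEK293, a line of human embryonic kidney origin transformed with adenovirus DNA and grown in Dulbecco's modified Eagle medium with serum. The 4 arrays are biological replicates of 1 group with no treatment, each from its own culture plate, so no condition was compared with another. Each array took Cy3-labelled cDNA made from total RNA with an oligo(dT) primer, and the values are log2 probe values as deposited. The cells were an established line kept in culture, so the values describe that line and not kidney tissue.

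Amino acids cross membranes through carriers that differ in what drives them. The SLC1 carriers use sodium and comprise glutamate carriers and exchangers of small neutral amino acids. The SLC38 carriers couple neutral amino acids to sodium, and SLC36 carriers such as the product of SLC36A1 couple them to protons. The SLC7 family holds a branch of carriers for cationic amino acids and a branch of light chains that reach the surface only when joined to a heavy chain of the SLC3 family, while the SLC43 carriers pass large neutral amino acids without sodium.

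The question asked of each gene was whether its signal lay above what the arrays give for genes taken as silent. The study set that level with seminal protein genes. On each array their mean plus 2 SD was the baseline, and the distance of a gene is its log2 level minus that baseline, so that 1 unit of distance is a 2-fold step in signal. From replicate 1 to replicate 4 the baseline was at 9.47, 9.94, 10.69 and 10.32 log2 units. The median probe value was 9.40, 9.40, 9.39 and 9.39, below the baseline on every array. A gene below the baseline is therefore not shown to be silent. Genes with a mean distance above 0 over the 4 arrays are called detected. Probes differ in affinity, and a distance therefore places a gene against the baseline and gives no ranking of transcript amounts between genes. The arrays carry a pool of cells, in which fewer cells that transcribe a gene and less RNA in each cell cannot be told apart.

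Of the 39 transporter genes, 19 (48.7%) were detected, against 9074 of all 17217 genes (52.7%). On every one of the 4 arrays 17 of the 39 (43.6%) lay above the baseline, against 45.0% of all genes. The one-sided limma test of the distance, with Benjamini-Hochberg adjustment over all genes, called 18 of the 39 (46.2%), against 45.9% of all genes. In each of the 3 ways of counting, the share of transporters was near that of all genes. Detected were 3 of 7 SLC1 genes, 7 of 13 SLC7 genes, 2 of 4 SLC36 genes, 6 of 11 SLC38 genes and 1 of 3 SLC43 genes, while the 1 measured SLC3 gene was not. Among those detected, SLC7A11 was above the baseline on 2 arrays and SLC38A6 on 3, and the other 17 on all 4. Of the 20 that were not detected, 15 were above it on no array.

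**Figure D1:**
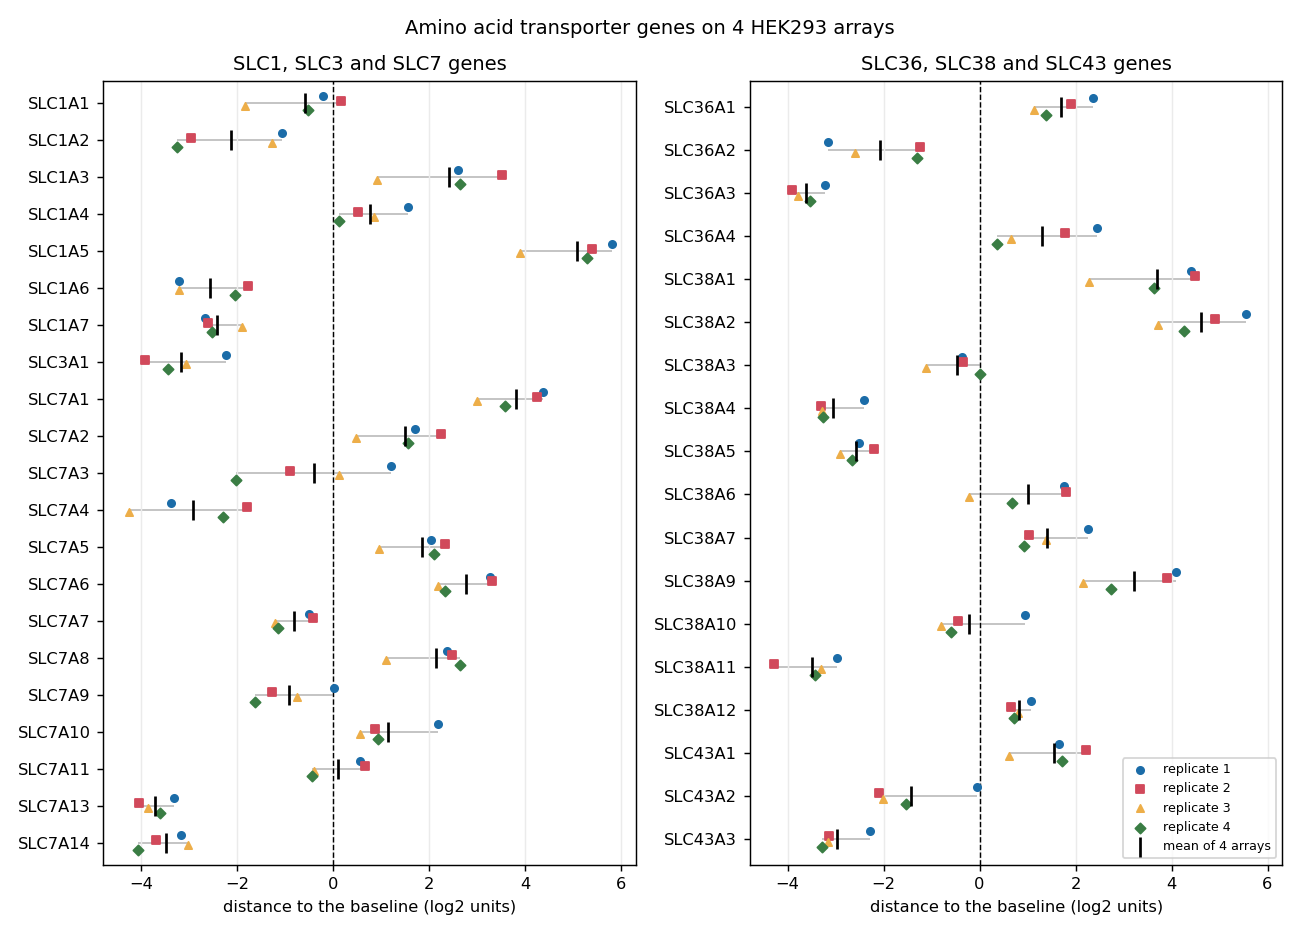
Each row is 1 of the 39 genes, and the horizontal axis gives its distance to the baseline in log2 units, with 1 symbol per replicate, a bar at the mean of the 4 arrays and a grey line over their range. SLC1A5, SLC38A2, SLC7A1, SLC38A1, SLC38A9 and SLC7A6 lay above the dashed baseline on every array by more than 2 units, and SLC7A13, SLC36A3 and SLC7A14 lay more than 3 units below it on every array.

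Among the SLC1 genes, both exchangers of neutral amino acids were detected and 1 of the 5 glutamate carriers was. SLC1A5 encodes ASCT2, an exchanger through which glutamine enters cells. Its distances on replicates 1 to 4 were 5.81, 5.39, 3.89 and 5.28, with a mean of 5.09 ± 0.83 (SD, n = 4). All 4 arrays were far above the baseline, and its 3 probes averaged 4.97, 5.00 and 5.22. SLC1A4, which encodes the related exchanger ASCT1 for alanine, serine and cysteine, lay much closer to it. Its distances were 1.56, 0.52, 0.86 and 0.12 on replicates 1 to 4, with a mean of 0.77 ± 0.61 (SD, n = 4). Every array was above the baseline, replicate 4 only just. The limma adjusted p was 0.0324, and it was 0.0594 when the prior was made robust and given an intensity trend. Leaving out replicate 1, 2 or 3 gave a limma adjusted p of 0.153, 0.0603 or 0.0544, and over all 17 alternatives it ran from 6.92e-14 to 1.0.

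SLC1A3 was the glutamate carrier that was detected. It encodes EAAT1, which is best known from astrocytes. Its distances were 2.61, 3.52, 0.92 and 2.65 on replicates 1 to 4, with a mean of 2.42 ± 1.09 (SD, n = 4). Replicate 3 stood lowest, and all 3 of its probes averaged above the baseline. SLC1A1 encodes EAAT3, the carrier of neurons and of kidney epithelium that also takes up cysteine. It lay at -0.20, 0.17, -1.83 and -0.52, with a mean of -0.59 ± 0.87 (SD, n = 4), so that only replicate 2 was above the baseline. Its probes went apart, 1 averaging 0.84 above the baseline and the others -3.22 and -3.86. SLC1A2, SLC1A6 and SLC1A7 encode EAAT2 of astrocytes, EAAT4 of cerebellar Purkinje cells and EAAT5 of the retina. These were above the baseline on no array, with mean distances of -2.14 ± 1.13, -2.56 ± 0.76 and -2.43 ± 0.36 (SD, n = 4).

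The measured heavy chain was SLC3A1, which encodes rBAT, the subunit that brings cystine and cationic amino acid transport to the brush border of the kidney tubule. Its distances were -2.24, -3.92, -3.07 and -3.44 on replicates 1 to 4, with a mean of -3.17 ± 0.71 (SD, n = 4). No array came near the baseline, and none of its 3 probes averaged above it. SLC7A9 encodes the light chain that rBAT carries, and mutations in either gene cause cystinuria. SLC7A9 lay at 0.02, -1.28, -0.75 and -1.62, with a mean of -0.91 ± 0.71 (SD, n = 4), so that replicate 1 alone reached the baseline. SLC7A13, a further light chain known to pair with rBAT, lay at -3.32, -4.05, -3.86 and -3.61, with a mean of -3.71 ± 0.32 (SD, n = 4). Heavy chain and both light chains of rBAT were thus not detected under the study's rule. SLC7A9 was above the baseline under 4 of 17 alternatives, each with a lower baseline, at a mean distance of up to 1.42. SLC3A1 and SLC7A13 were above it under none.

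The other 6 light chains are partners of 4F2hc, the product of SLC3A2, which was not analysed here. Of these 6, 5 were detected, beside 52.7% of all genes, and no test was made of this count. Among the 5, limma did not call SLC7A11, and SLC7A10 rested on 1 probe. SLC7A5 encodes LAT1, a carrier for leucine and other large neutral amino acids. Its distances were 2.03, 2.33, 0.96 and 2.09, with a mean of 1.85 ± 0.61 (SD, n = 4). SLC7A8 encodes LAT2 of similar substrates and lay at 2.38, 2.48, 1.10 and 2.65, with a mean of 2.15 ± 0.71 (SD, n = 4). In distance, replicate 3 was the lowest for LAT1 and LAT2 alike and still above the baseline. In level, before the baseline was subtracted, replicate 1 was the lowest for LAT1, at 11.50, and replicate 3 for LAT2, at 11.79. Copies of SLC7A5 sequence exist elsewhere in the genome, and whether its probes also bind their transcripts was not tested.

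The pair of light chains that exchange cationic against neutral amino acids fell on opposite sides of the baseline. SLC7A6, encoding y+LAT2, lay at 3.26, 3.32, 2.18 and 2.32, with a mean of 2.77 ± 0.60 (SD, n = 4). SLC7A7, encoding y+LAT1, whose loss causes lysinuric protein intolerance, lay at -0.50, -0.43, -1.21 and -1.15, with a mean of -0.82 ± 0.41 (SD, n = 4). SLC7A6 was above the baseline on every array and SLC7A7 on none. The 3 probes of SLC7A6 averaged 1.12, 2.30 and 3.74, and those of SLC7A7 averaged -2.57, -0.95 and -0.09.

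Calls of the last pair of light chains rested on fewer probes. SLC7A10 encodes Asc-1, an exchanger of small neutral amino acids that also carries D-serine. Its distances were 2.18, 0.87, 0.56 and 0.94, with a mean of 1.14 ± 0.71 (SD, n = 4) and a limma adjusted p of 0.00147, which ran from 2.35e-17 to 1.0 over the alternatives. A single probe averaged 2.64 above the baseline and the others averaged -3.48 and -2.18, so that with the median of the probes in place of their mean the distance was -2.04. SLC7A11 encodes xCT, which takes up cystine for glutathione synthesis in exchange for glutamate. It lay at 0.56, 0.66, -0.39 and -0.43, with a mean of 0.10 ± 0.59 (SD, n = 4). Replicates 1 and 2 were above the baseline and replicates 3 and 4 below it, and the limma adjusted p was 0.749, with a range of 4.56e-11 to 1.0 over the alternatives. Without replicate 1 the mean was -0.054, and without replicate 2 it was -0.086.

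Of the cationic branch of SLC7, 2 of 5 genes were detected. SLC7A1 encodes CAT1, the widely expressed carrier of arginine and lysine. Its distances were 4.38, 4.25, 3.00 and 3.58 on replicates 1 to 4, with a mean of 3.80 ± 0.64 (SD, n = 4). SLC7A2, encoding CAT2, lay at 1.70, 2.24, 0.48 and 1.56, with a mean of 1.50 ± 0.74 (SD, n = 4). Both were above the baseline on every array and with all 3 probes. SLC7A3, encoding CAT3, which is best known from brain, was the least even of the 39 genes between arrays. It lay at 1.20 on replicate 1 and 0.11 on replicate 3, but at -0.90 on replicate 2 and -2.03 on replicate 4, with a mean of -0.40 ± 1.38 (SD, n = 4). That SD was the largest of any member, against a median SD of 0.71 over the 39 genes and 0.63 over all genes. Without replicate 4 its mean distance was 0.14. Replicates 1 and 3 also stood above replicates 2 and 4 for SLC1A2, at -1.06 and -1.26 against -2.96 and -3.26, and for the neuronal marker NEFM, which lay above the baseline on the former and at -1.62 and -2.24 on the latter. Of the other neuronal cytoskeleton genes looked at, INA kept this order, at 3.84 and 2.28 against 2.19 and 1.35. NEFL and NEFH did not, and replicate 3 was the lowest array for both. Replicates 1 and 3 stood below replicates 2 and 4 for SLC7A4, at -3.37 and -4.24 against -1.79 and -2.29, and for SLC36A2. These genes were named after their values had been seen, the labels give no batch for the arrays, and the cause was not tested. SLC7A4 and SLC7A14, which belong to this branch by sequence, were above the baseline on no array, with means of -2.92 ± 1.10 and -3.49 ± 0.48 (SD, n = 4).

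Of the 11 SLC38 genes, 6 were detected, with calls mixed within subtypes. System A, the sodium-coupled uptake of small neutral amino acids, comprises SLC38A1, SLC38A2 and SLC38A4, and SLC38A1 and SLC38A2 were detected. SLC38A1 (SNAT1) had distances of 4.41, 4.49, 2.28 and 3.63, with a mean of 3.70 ± 1.03 (SD, n = 4). SLC38A2 (SNAT2), a gene known to be induced when amino acids run short, had 5.55, 4.92, 3.72 and 4.25, with a mean of 4.61 ± 0.80 (SD, n = 4). Every probe of these genes averaged above the baseline, and replicate 3 was the lowest array for both. SLC38A4 (SNAT4), best known from liver, lay at -2.41, -3.30, -3.27 and -3.25, with a mean of -3.06 ± 0.43 (SD, n = 4). None of its arrays and none of its probes came near the baseline.

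In the RefSeq gene order of GRCh38.p14, SLC38A1, SLC38A2 and SLC38A4 stand next to each other on chromosome 12 with 0 protein-coding genes between them. Their promoters are shown because immediate neighbours with related products lay on opposite sides of the baseline. Each line holds the 250 bases before a RefSeq start in GRCh38.p14, 5′ to 3′ on the gene's own strand, which is the minus strand for all of them, with each CG dinucleotide in capitals. The windows are chr12:46267988-46268237 for SLC38A1, chr12:46372774-46373023 for SLC38A2 and chr12:46825998-46826247 for SLC38A4, and where a gene has several listed starts the start with the most CG was taken.
SLC38A1: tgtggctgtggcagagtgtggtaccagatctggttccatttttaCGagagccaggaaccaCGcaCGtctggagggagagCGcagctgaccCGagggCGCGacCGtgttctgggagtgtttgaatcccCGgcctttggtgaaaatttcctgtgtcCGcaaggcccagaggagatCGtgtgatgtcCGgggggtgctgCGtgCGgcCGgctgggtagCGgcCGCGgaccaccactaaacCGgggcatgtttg
SLC38A2: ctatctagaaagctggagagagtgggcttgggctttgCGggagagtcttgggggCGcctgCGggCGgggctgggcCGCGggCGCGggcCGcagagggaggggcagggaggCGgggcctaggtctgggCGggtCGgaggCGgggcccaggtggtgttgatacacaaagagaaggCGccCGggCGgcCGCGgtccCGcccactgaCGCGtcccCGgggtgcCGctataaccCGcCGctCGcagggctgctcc
SLC38A4: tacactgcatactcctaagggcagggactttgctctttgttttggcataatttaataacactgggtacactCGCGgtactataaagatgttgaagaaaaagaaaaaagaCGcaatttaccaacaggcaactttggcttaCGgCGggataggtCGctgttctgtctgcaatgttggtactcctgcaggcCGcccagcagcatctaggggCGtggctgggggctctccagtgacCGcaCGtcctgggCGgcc
The windows held 19 CG dinucleotides for SLC38A1, 26 for SLC38A2 and 11 for SLC38A4. SLC38A1 had 2 listed starts to pick from, and SLC38A2 and SLC38A4 had 1 each.

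Neither gene of system N, the subtype that carries glutamine, asparagine and histidine against protons, was detected. SLC38A3 (SNAT3), known from liver and kidney, lay at -0.37, -0.35, -1.12 and 0.00, with a mean of -0.46 ± 0.47 (SD, n = 4), so that replicate 4 lay on the baseline. Its probes averaged -1.68, -0.49 and 0.09. SLC38A5 (SNAT5) lay more than 2 units below the baseline on every array, with a mean of -2.56 ± 0.29 (SD, n = 4).

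The remaining SLC38 genes include carriers of the lysosome. SLC38A9 encodes a lysosomal protein that senses arginine and signals to mTORC1, the growth-controlling kinase complex. Its distances were 4.09, 3.92, 2.17 and 2.74, with a mean of 3.23 ± 0.93 (SD, n = 4), and all 3 probes averaged above the baseline. SLC38A7, a lysosomal exporter of glutamine, lay at 2.26, 1.03, 1.39 and 0.93, with a mean of 1.40 ± 0.60 (SD, n = 4). Both were above the baseline on all 4 arrays. SLC38A6 lay at 1.76, 1.80, -0.23 and 0.67, with a mean of 1.00 ± 0.97 (SD, n = 4) and a limma adjusted p of 0.00521, which ran from 7.23e-16 to 1.0 over the alternatives. Replicate 3 was the only array on which it fell below the baseline, and without replicate 2 its limma adjusted p was 0.105. SLC38A12 lay at 1.06, 0.66, 0.81 and 0.72, with a mean of 0.81 ± 0.18 (SD, n = 4), the smallest SD in distance of the 39 genes. In level, before the baseline was subtracted, it was less even, at 10.53, 10.59, 11.50 and 11.04 on replicates 1 to 4. SLC36A1 stood at 11.83, 11.83, 11.82 and 11.70 in level. The limma adjusted p of SLC38A12 was 0.0231, which ran from 1.84e-14 to 1.0 over the alternatives. Its distance came from 1 probe at 2.13, while the others averaged -2.47 and -0.59, and with the median of the probes it was -0.45. Without replicate 2 or 4 the limma adjusted p of SLC38A12 was 0.0554 or 0.0654.

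SLC38A10 was the 1 member with 2 targets, and they lay on opposite sides of the baseline. The first target had distances of -0.06, -2.52, -1.64 and -2.23, with a mean of -1.61 ± 1.10 (SD, n = 4). The other had 1.96, 1.62, 0.02 and 1.04, with a mean of 1.16 ± 0.85 (SD, n = 4). On no array did the first target reach the baseline and on none was the other below it. Their average, the gene's value, was -0.23 ± 0.80 (SD, n = 4), not detected, and the higher target alone would have been. SLC38A11 was above the baseline on no array, with a mean of -3.49 ± 0.56 (SD, n = 4).

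Of the SLC36 genes, 2 of 4 were detected. SLC36A1 encodes PAT1, which lets amino acids out of lysosomes and into intestinal cells. Its distances were 2.36, 1.90, 1.13 and 1.37 on replicates 1 to 4, with a mean of 1.69 ± 0.55 (SD, n = 4). All 4 arrays were above the baseline, but the probes averaged 2.98, 0.08 and -0.65, so that 1 probe carried most of the signal. With the median of the probes the limma adjusted p of SLC36A1 was 0.566, the highest of a range over the alternatives that began at 4.83e-24. SLC36A4, encoding PAT4, a carrier of proline and tryptophan, lay at 2.44, 1.79, 0.65 and 0.37, with a mean of 1.31 ± 0.97 (SD, n = 4). Replicates 1 and 2 were the higher arrays for SLC36A4, and its limma adjusted p was 0.000243, which ran from 2.48e-19 to 1.0 over the alternatives. SLC36A2, the proline and glycine carrier of the kidney tubule, lay at -3.17, -1.25, -2.60 and -1.29, with a mean of -2.08 ± 0.96 (SD, n = 4). SLC36A3, known from testis, lay at -3.21, -3.90, -3.79 and -3.52, with a mean of -3.61 ± 0.30 (SD, n = 4).

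SLC36A3, SLC36A2 and SLC36A1 are neighbours on chromosome 5, again with 0 protein-coding genes between them. Their promoters are given in the same form, because SLC36A1 was detected and the genes beside it were not. The windows in GRCh38.p14 are chr5:151447353-151447602 on the plus strand for SLC36A1, and chr5:151347560-151347809 for SLC36A2 and chr5:151303767-151304016 for SLC36A3, both on the minus strand.
SLC36A1: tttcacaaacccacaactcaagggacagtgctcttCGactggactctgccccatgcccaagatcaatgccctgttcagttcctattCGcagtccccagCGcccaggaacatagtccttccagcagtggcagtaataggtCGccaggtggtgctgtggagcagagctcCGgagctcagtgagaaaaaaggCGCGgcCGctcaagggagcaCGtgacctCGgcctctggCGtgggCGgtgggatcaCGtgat
SLC36A2: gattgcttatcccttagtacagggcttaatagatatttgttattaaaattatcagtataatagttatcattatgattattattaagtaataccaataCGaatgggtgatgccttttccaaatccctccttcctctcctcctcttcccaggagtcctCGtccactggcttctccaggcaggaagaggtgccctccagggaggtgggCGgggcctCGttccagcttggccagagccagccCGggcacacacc
SLC36A3: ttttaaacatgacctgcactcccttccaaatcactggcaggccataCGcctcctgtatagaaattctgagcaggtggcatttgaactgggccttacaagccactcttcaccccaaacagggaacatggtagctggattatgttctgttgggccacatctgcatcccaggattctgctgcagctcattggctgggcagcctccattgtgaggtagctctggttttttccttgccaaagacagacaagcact
The count of CG dinucleotides was 13 in the window of SLC36A1, 5 in that of SLC36A2 and 1 in that of SLC36A3. SLC36A1 had 2 listed starts to pick from, and SLC36A2 and SLC36A3 had 1 each.

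**Figure D2:**
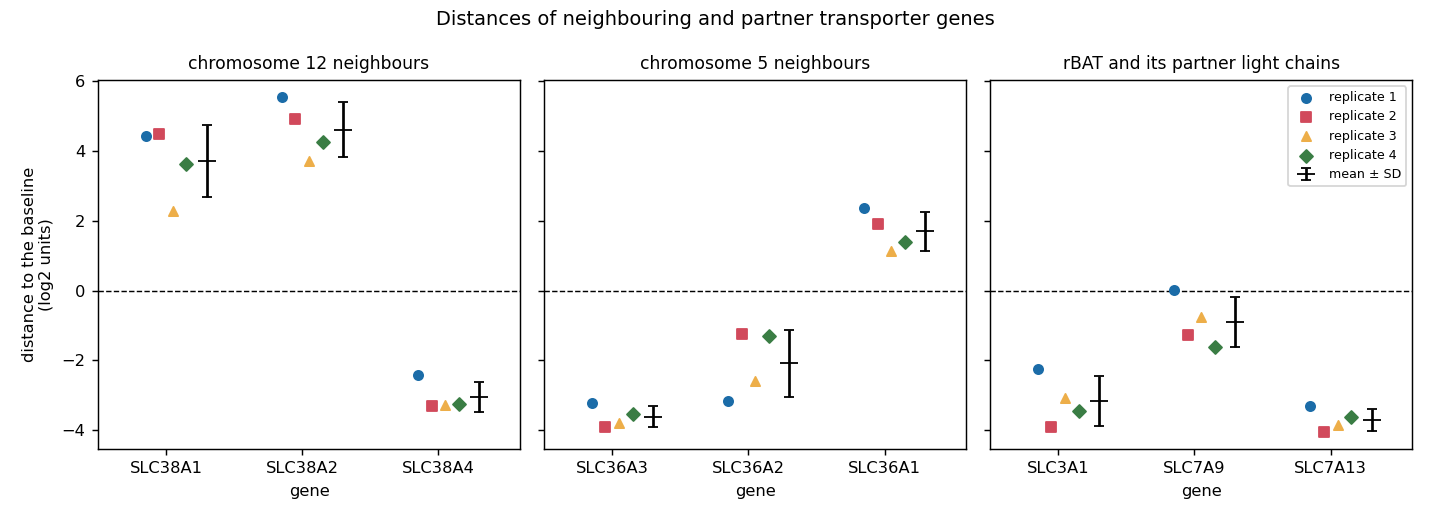
The vertical axis is the distance to the baseline in log2 units for the chromosome 12 neighbours, the chromosome 5 neighbours, and rBAT with its light chains, with 1 symbol per replicate and a cross with bars for the mean ± SD of 4 arrays. SLC38A1, SLC38A2 and SLC36A1 lay above the dashed baseline on all 4 arrays, while of the other genes drawn only SLC7A9 reached it, on replicate 1.

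SLC43 genes encode carriers of branched-chain and other large neutral amino acids, and 1 of 3 was detected. SLC43A1 (LAT3) had distances of 1.65, 2.21, 0.61 and 1.72, with a mean of 1.54 ± 0.67 (SD, n = 4). Every array was above the baseline, with 1 probe at 2.78 and the others just below it at -0.06 and -0.23. With the median of the probes the limma adjusted p of SLC43A1 was 0.797, the highest of a range that began at 3.64e-22. SLC43A2 (LAT4) lay at -0.04, -2.09, -2.01 and -1.53, with a mean of -1.42 ± 0.95 (SD, n = 4), and only replicate 1 came close to the baseline. SLC43A3, a carrier of purine nucleobases in spite of its family, was above it on no array, with a mean of -2.96 ± 0.46 (SD, n = 4). SLC43A3 and SLC43A1 stand on chromosome 11 with 1 protein-coding gene, RTN4RL2, between them.

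The number of probes behind a call differed among the 19 detected transporters. In 11 of them (57.9%) all 3 probes averaged above the baseline, in 4 it was 2 of 3, and in SLC7A10, SLC7A11, SLC38A12 and SLC43A1 (21.1%) it was 1 of 3. Over all 8238 detected genes with 3 probes, 67.1% had all 3 above the baseline and 8.5% had 1. These shares are a description of genes already called, and no test was made of them. Of the 20 transporters that were not detected, SLC1A1, SLC7A3, SLC38A3 and SLC38A10 had at least 1 probe above the baseline. Whether single probes of these genes bind other transcripts was not tested.

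**Figure D3:**
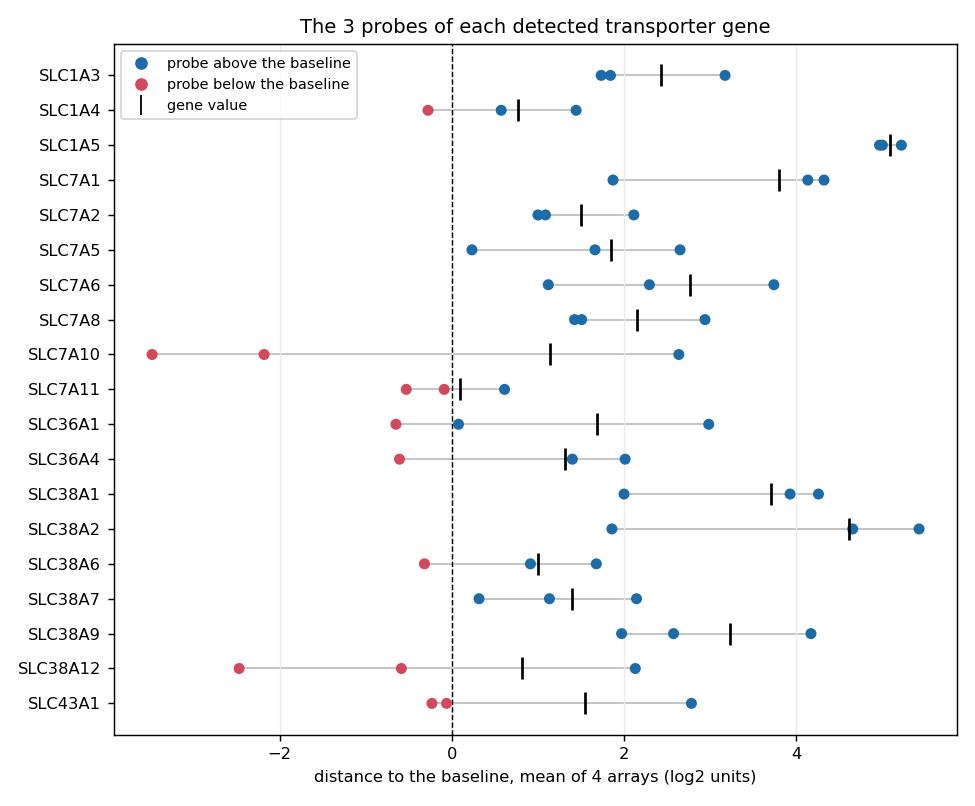
For each of the 19 detected genes the horizontal axis gives the distance of its 3 probes to the baseline in log2 units, as the mean of 4 arrays, with the gene's value as a bar. The probes of SLC1A5 lay together between 4.97 and 5.22, and those of SLC7A10 spread from -3.48 to 2.64.

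Promoter windows were available for 30 of the 39 members. The motif counted was CG, which reads the same on both strands, and all 30 windows held it, as did 97.6% of the 13807 windows of named genes. The 17 detected members had a median of 22 CG (7 to 43) and the 13 others a median of 7 (1 to 37). Over all named genes the medians were 24 for the 7588 that were detected and 11 for the 6219 that were not. SLC1A3 and SLC7A10 were detected with 7 and 11 CG, while SLC43A2, with 37, and SLC1A1, with 24, were not. The split among transporters had the direction seen over all genes, and no test was made of it. For each gene the listed start with the most CG was taken, so a gene with more starts had more windows to pick from. Of the members with the most starts, SLC7A8 (4 starts), SLC1A3, SLC1A5 and SLC38A9 (3 each) were detected. SLC7A7 and SLC43A2 (3 each) were not. What this choice did to the split was not tested.

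**Figure D4:**
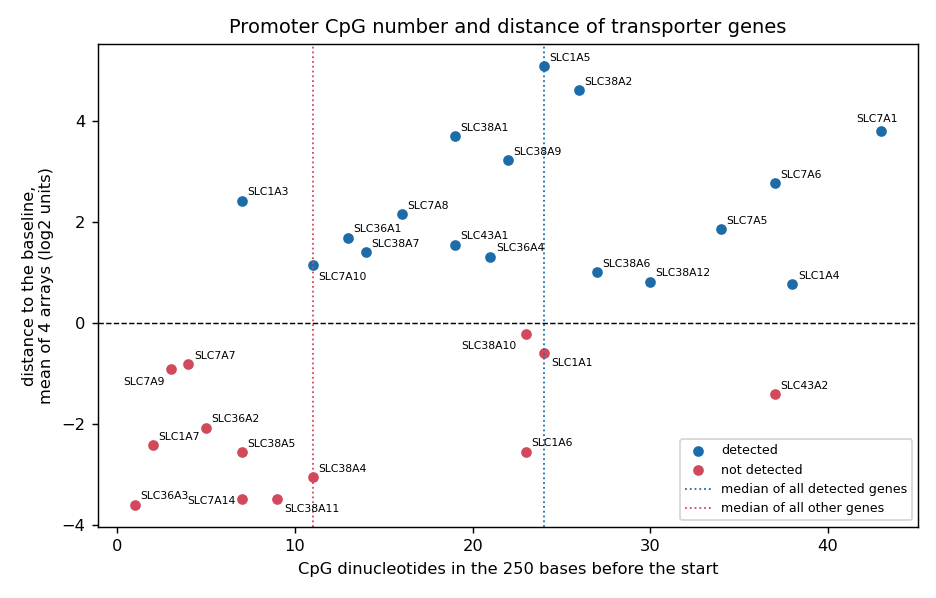
The horizontal axis is the number of CG dinucleotides in the 250 bases before the start, and the vertical axis the distance to the baseline in log2 units, as the mean of 4 arrays, for the 30 members with a window. Dotted lines mark the medians of all detected genes (24) and of all other genes (11), and SLC43A2 with 37 is the highest of the members not detected and SLC1A3 with 7 the lowest of those detected.

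Other genes around amino acid transport were taken from lists chosen with earlier results of these data known. Of 18 amino acid carriers of other families, 7 were detected, all of them on all 4 arrays and called by limma, where over all genes 52.7% were detected, 45.0% lay above on all 4 arrays and 45.9% were called. These were SLC6A6, the taurine carrier, at 1.84 ± 0.87, SLC6A9, the glycine carrier GlyT1, at 1.35 ± 0.38, and SLC6A15, a brain carrier of branched-chain amino acids and proline, at 1.22 ± 0.90 (SD, n = 4). With them were SLC15A4, a lysosomal carrier of histidine and small peptides, at 2.66 ± 0.70, SLC16A10, which passes aromatic amino acids, at 3.10 ± 0.86, and the lysosomal exporters CTNS for cystine at 1.72 ± 0.59 and SLC66A1 for cationic amino acids at 0.71 ± 0.58 (SD, n = 4). The 3 vesicular glutamate carriers SLC17A6, SLC17A7 and SLC17A8, the vesicular GABA and glycine carrier SLC32A1 and the tubule carriers SLC6A18, SLC6A19 and SLC6A20 were not detected.

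Lists of genes that read amino acid supply are given by their counts, with no test, and stand beside 52.7% detected and 45.9% called over all genes. Of 22 genes of lysosomal sensing and mTORC1, to which SLC38A9 reports, 19 were detected and 19 called by limma. MTOR, the kinase, lay at 4.23 ± 0.76 and RRAGA, a GTPase that recruits it to the lysosome, at 4.12 ± 0.73 (SD, n = 4). RPTOR, the scaffold of mTORC1, RRAGB, a further Rag GTPase, and CASTOR1, a cytosolic arginine sensor, were below the baseline at -0.65 ± 0.33, -0.92 ± 0.68 and -1.43 ± 0.52 (SD, n = 4). Of 14 genes of the GCN2-ATF4 response, which raises carriers such as SLC38A2 and SLC7A11 when amino acids are scarce, 12 were detected and 12 called. The transcription factor ATF4 lay at 3.57 ± 0.64 and its target ASNS, which makes asparagine, at 4.09 ± 0.57 (SD, n = 4). CEBPB, a transcription factor, and CHAC1, an enzyme that breaks down glutathione, were below the baseline at -0.15 ± 0.65 and -1.28 ± 0.80 (SD, n = 4). All 6 genes of glutathione synthesis and use, CBS and CTH of the route from methionine to cysteine among them, were detected and 5 were called. GCLM, the modifier subunit of the first enzyme, was the exception at 0.29 ± 0.86, above the baseline on 2 arrays, while its catalytic partner GCLC lay at 2.49 ± 0.72 (SD, n = 4).

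Markers of cell types and the arrays themselves set the frame for these calls. All 10 reference genes and 4 of 4 neuronal cytoskeleton genes were detected (NEFM on 2 arrays, at 0.66 ± 3.08), with 10 and 3 of them called by limma. Detected were also 1 of 7 kidney markers (LRP2, at 1.27 ± 0.68), 1 of 3 embryonic kidney transcription factors (SIX2, at 0.04 ± 0.45), 0 of 4 immune markers and 0 of 4 adrenal cortex markers (SD, n = 4). The limma adjusted p was 0.000396 for LRP2, 0.0644 for NEFM and 0.873 for SIX2, so that NEFM and SIX2 were not called. The test gave every gene the same standard error of 0.351, so the value for NEFM does not reflect its own SD of 3.08. The 10 control genes had mean distances between -3.58 and -0.13. They set the baseline themselves, so this range is no separate check of it. Only SPATA5 (now AFG2A) was above it on any array, at 0.04 on replicate 3. Replicate 3, with the highest baseline, was the lowest array in distance for 21 of the 39 transporters and for 58.2% of all genes. In level, before the baseline was subtracted, it was the lowest for 10 of the 39. The number of transporters above the baseline was 22, 20, 18 and 19 on replicates 1 to 4. The probe values had 1 distribution on replicates 1 and 2 and another on replicates 3 and 4. SLC7A11 and SLC36A4 had higher distances on replicates 1 and 2, as had other members, such as SLC7A1 and SLC38A9 but not SLC38A7. The baseline was lower on replicates 1 and 2 as well. In level, before the baseline was subtracted, SLC36A4 kept this order. SLC7A11 did not, at 10.03, 10.60, 10.30 and 9.89 on replicates 1 to 4. The cause of the split was not tested. With all 4 arrays brought to 1 distribution, 19 transporters were detected.

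The count of detected transporters moved with the baseline in step with that of all genes. It was 13 of 39 with a baseline of 3 SD and 25 with 1 SD, and reached 28 when SPATA5 (now AFG2A) and SPATA13, the control genes closest to the baseline, were left out. For all 17217 genes the counts were 6731, 11075 and 12747. SLC1A3, SLC1A5, SLC7A1, SLC7A6, SLC38A1, SLC38A2 and SLC38A9 were detected and called by limma under all 17 alternatives, and a further 6 (SLC7A2, SLC7A5, SLC7A8, SLC36A1, SLC38A7 and SLC43A1) kept a mean distance above 0 under them. With 3 SD the limma calls of SLC7A2, SLC7A5, SLC7A8 and SLC38A7 were lost, at adjusted p of 0.869, 0.246, 0.0509 and 1.0, and no other alternative ended them. The limma calls of SLC36A1 and SLC43A1 were lost with 3 SD too, at adjusted p of 0.478 and 0.762. For these genes the median of the probes also ended the calls, at 0.566 and 0.797. The 11 genes SLC1A6, SLC1A7, SLC3A1, SLC7A4, SLC7A13, SLC7A14, SLC36A3, SLC38A4, SLC38A5, SLC38A11 and SLC43A3 stayed below the baseline under all 16 alternatives holding them. The limma fit on genes above the array median on at least 1 array left them out. The other 15 changed sides under at least 1 alternative.

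**Figure D5:**
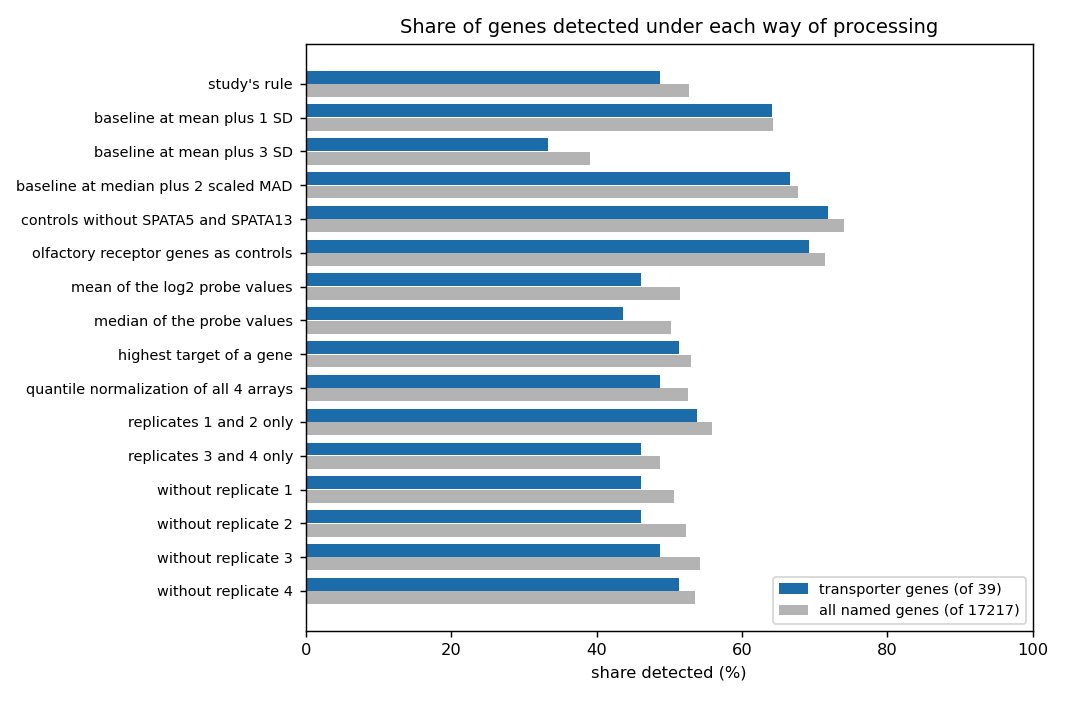
Bars give the share of genes detected, in percent from 0, for the 39 transporters (blue) and all 17217 named genes (grey) under the study's rule and 15 other ways of processing. Transporters stood at 48.7% and all genes at 52.7% under the study's rule, and the transporters' count ran from 13 to 28 over the others.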

How the data were processed

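RNA of 4 HEK293 cultures was measured on NimbleGen arrays. The authors deposited 1 log2 value per probe (71998 probes). The submitters' processing notes name RMA, and its version and settings are not given in the sources used here. When each array's probe values were sorted, 99.97% of ranks differed by at most 0.01 log2 units between replicates 1 and 2 and 99.99% between replicates 3 and 4, against 1.23% to 1.25% across these pairs. That is the form left by normalizing each pair on its own, which no source used here states. Raw scanner intensities were not used here. Spot background and saturation were therefore not examined, and the number of arrays limits the precision.

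RefSeq accessions in the probe names, without versions, were matched to a RefSeq gene table of GRCh38.p14, which named 19125 of 24000 targets, or 17217 genes. The array was designed on an earlier assembly, so the table gave names and gene order only. Probe values of a target were averaged on the linear scale and returned to log2, and targets of a gene were averaged on the log2 scale. Control genes, of which 10 of 11 were matched, gave the baseline as their mean plus 2 SD. The detection rule was the study's.

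Distances of all genes were fitted with limma 3.58 in R 4.3 (one-sided, Benjamini-Hochberg at 0.05), after the code was tested on simulated data. Prior degrees of freedom were infinite, so each gene had a standard error of 0.351. A shift of the baseline moves all genes of an array together, so the tests are not independent. The simulated data held no such shared shift, so they did not check the p-values under it. Tables were handled with Python 3.11, pandas 2.3 and numpy 2.4.

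Members were taken by symbol and not by value, but they and the lists were chosen with earlier results of these data known. Values on each array are given for the heavy and light chains, detected members, and members near or on both sides of the baseline, the rest by mean and count. Promoters came from RefSeq (GRCh38.p14). Alternatives changed the baseline, the controls, the summary of probes and targets, the normalization, the arrays used and the limma settings.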

Additional observations from a re-analysis of the deposited data

Results flagged for a closer look

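In 4 arrays a single value can stand apart from the others. For each of 141 genes, the 39 transporters among them, the gap between an end value and its nearest neighbour was divided by the whole range of the distances, and a ratio above Dixon's critical value for 4 samples was looked at again. About 1 in 20 groups passes by chance, and 9 of the 141 genes passed. Among the transporters there were 2. SLC38A4 had a ratio of 0.946, with replicate 1 at -2.41 and the other arrays between -3.30 and -3.25. SLC43A3 had a ratio of 0.850, with replicate 1 at -2.28 and the others between -3.28 and -3.13. Both stayed below the baseline on all 4 arrays.

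Replicate 1 also stood high for SPESP1 (0.837), SLC66A1 (0.833), GAPDH (0.906) and STAR (0.932). Replicate 3 stood low for PSPH (0.837) and CBS (0.900), and replicate 4 stood low for ODF1 (0.862). The baseline was lowest on replicate 1 and highest on replicate 3. In levels, before the baseline was subtracted, the ratios of these 9 genes ran from 0.163 for PSPH to 0.547 for SPESP1, and none was above the critical value. The cause was not tested.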

How the results depend on the processing

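The baseline of 10.10 was 8.79 at the mean plus 1 SD, 11.42 at 3 SD, 8.40 at the median plus 2 scaled MAD, 7.78 without SPATA5 and SPATA13, and 8.02 with olfactory receptor genes as controls. Transporters above it on all arrays numbered 6 at 3 SD and 26 without SPATA5 and SPATA13, and limma called 7 at 3 SD. The other 68 values of overall counts and baseline stayed within 1.5 times or 1 SD. By family, detected genes went from 3 to 5 in SLC1 without SPATA5 and SPATA13, from 2 to 1 in SLC36 at 3 SD, and from 1 to 2 in SLC43 with the MAD, without SPATA5 and SPATA13, and with olfactory controls. No paired analysis was possible because there is 1 group.

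Mean distances that changed sign were as follows. With 1 SD they were 0.72 for SLC1A1, 0.91 for SLC7A3, 0.50 for SLC7A7, 0.41 for SLC7A9, 0.86 for SLC38A3 and 1.09 for SLC38A10. With the median and MAD they were 1.11 for SLC1A1, 1.30 for SLC7A3, 0.88 for SLC7A7, 0.80 for SLC7A9, 1.24 for SLC38A3, 1.48 for SLC38A10 and 0.29 for SLC43A2. Without SPATA5 and SPATA13 they were 1.73 for SLC1A1, 0.19 for SLC1A2, 1.92 for SLC7A3, 1.50 for SLC7A7, 1.42 for SLC7A9, 0.25 for SLC36A2, 1.87 for SLC38A3, 2.10 for SLC38A10 and 0.91 for SLC43A2. Olfactory controls gave 1.49 for SLC1A1, 1.68 for SLC7A3, 1.26 for SLC7A7, 1.17 for SLC7A9, 0.0067 for SLC36A2, 1.62 for SLC38A3, 1.86 for SLC38A10 and 0.66 for SLC43A2. With 3 SD they were -0.55 for SLC1A4, -0.18 for SLC7A10, -1.22 for SLC7A11, -0.0063 for SLC36A4, -0.32 for SLC38A6 and -0.50 for SLC38A12. By construction, a lower baseline lifts every gene and a higher one lowers it.

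The median of the probes gave -2.04 for SLC7A10 and -0.45 for SLC38A12, and the mean of log2 probe values -0.67 for SLC7A10. The highest target of SLC38A10 gave 1.12. Replicates 1 and 2 alone gave 0.15 for SLC7A3 and 0.25 for SLC38A10, and replicates 3 and 4 alone -0.41 for SLC7A11. Leaving out 1 replicate, SLC7A11 ran from -0.086 (without replicate 2) to 0.28 and SLC7A3 from -0.94 to 0.14 (without replicate 4). The limma call of SLC1A4 was lost without replicate 1, 2 or 3 (adjusted p 0.153, 0.0603 and 0.0544), that of SLC38A12 without replicate 2 or 4 (0.0554 and 0.0654), and that of SLC38A6 without replicate 2 (0.105). Replicates 3 and 4 alone ended the limma calls of SLC1A4, SLC7A10, SLC36A4 and SLC38A6 (adjusted p 0.206, 0.0563, 0.168 and 0.585). Replicates 1 and 2 alone ended that of SLC38A12 (limma adjusted p 0.064). Apart from these shown alternatives, the cause was not tested. Probe signal limits the calls near the baseline, and 4 arrays limit them all.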
